A study of Homo sapiens with 2 samples.

Results

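The NEDD4 family of ubiquitin ligases was followed in K562 cells with and without depletion of the cohesin subunit SMC1A. The 10 genes are the 9 ligases HECW1, HECW2, NEDD4, NEDD4L, ITCH, WWP1, WWP2, SMURF1 and SMURF2 and the antisense transcript HECW2-AS1, which were chosen by gene symbol from the 62700 genes of the deposited count table, and each of the 10 had its own row. The family was singled out from these same libraries because HECW2 stood near the top of their differences, so the HECW2 values chose the set and are given as a description, without a test. K562 is an established human cell line from chronic myeloid leukemia that expresses erythroid genes. Both libraries came from K562 cells whose titles give WT and whose genotype label reads E50_dCas9-KRAB, so both carried dCas9-KRAB, a Cas9 without nuclease activity joined to a repressor domain. What E50 stands for is not explained by the labels. The groups differed in the guide RNA: sgRNA_Control in one library and sgRNA_SMC1A in the other, with 1 library for each guide. Guides came by lentivirus, transduced cells were kept in 1 µg/ml puromycin between day 2 and day 6, and the cells with the strongest BFP signal from the guide vector were sorted before poly(A) RNA was sequenced. The labels do not say whether the dCas9-KRAB cells were a single clone.

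The 9 ligases transfer ubiquitin through a carboxy-terminal HECT domain, in which a catalytic cysteine takes ubiquitin from an E2 enzyme and passes it to the substrate. An amino-terminal C2 domain binds membranes, and WW domains in the middle of the protein bind proline-rich PY motifs in substrates and adaptors. Through these contacts the family controls the turnover of membrane receptors, channels and transporters, of SMAD signalling and of several transcription factors. The HECW pair is known mainly from nervous tissue, while ITCH, WWP1, WWP2 and the SMURF pair are expressed in many cell types.

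Totals were 18349209 counts for the control guide and 16864207 for the SMC1A guide. SMC1A itself fell from 8077 counts to 288 in the library of its own guide, which left 3.55% of the control level (95% counting interval 3.14 to 3.99). All 10 erythroid markers on the list were detected in both libraries, with summed levels of 13809 and 13151 counts per 1000000 (CPM). Of these, 3 were at least 2-fold lower, against 2.32% of all genes: the globin genes HBG1 (log2 ratio -1.50), HBG2 (-1.68) and HBZ (-1.56). The globin gene HBE1 went the other way, from 6755 to 10348 CPM (0.62), so the near-level sum holds opposite differences. Because each guide had 1 library, no test across samples was possible, and every interval below covers counting error only and no variation between cultures. Levels are CPM of library sizes scaled by the trimmed mean of M-values (TMM), and log2 ratios set the SMC1A guide over the control guide.

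HECW2 RNA was nearly absent with the control guide and abundant with the SMC1A guide, while NEDD4 was 1.69-fold higher and the other 6 detected ligases were within 1.5-fold of the control library. Of the 9 genes with at least 100 counts over both libraries, 1 passed 2-fold upward and 0 passed it downward. Among all 11321 genes with that many counts, 5.11% passed it upward and 2.32% downward, and nothing is read from the family's count, since HECW2 chose the set. The 7 detected ligases without HECW2 had a median log2 ratio of 0.20, against -0.05 over all genes and an SD of 0.64 between genes. The remaining ligase, HECW1, had 0 counts in both libraries.

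**Figure D1:**
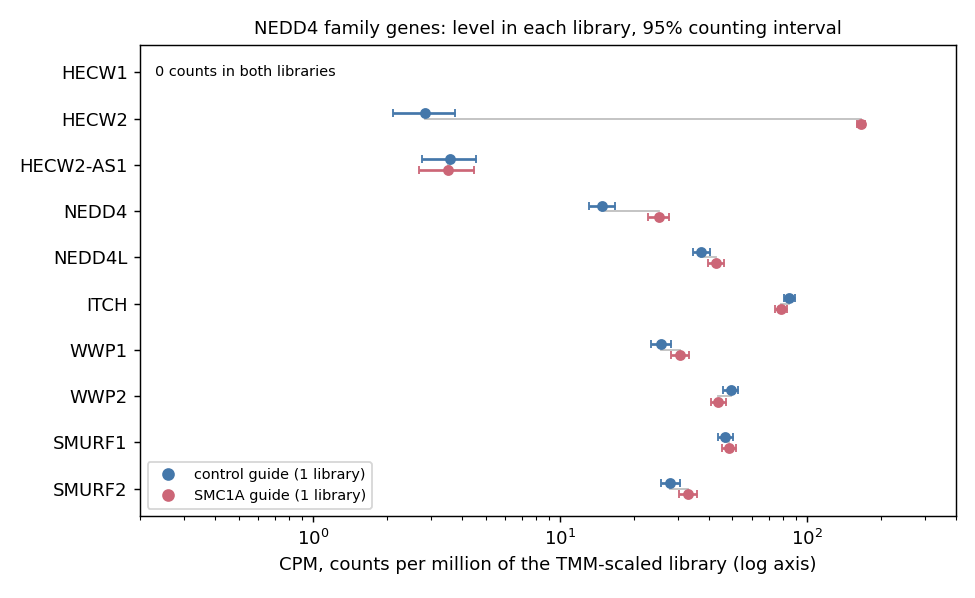
Level of each gene in the 2 libraries, in CPM on a log axis, with points for the libraries and bars for the exact 95% counting interval. HECW2 moves from 2.85 to 165.8 CPM, and HECW2-AS1 has overlapping intervals at 3.59 and 3.52 CPM (control guide first).

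HECW2 (ENSG00000138411.13, chromosome 2, 196189099 to 196593692, minus strand, GRCh38) encodes a ligase that, as background, is known to act on the p53 relative p73. It had 50 counts (2.85 CPM, interval 2.12 to 3.76) with the control guide. With the SMC1A guide it had 2924 counts (165.8 CPM, interval 160 to 172). The SMC1A library was the high one, and the counting intervals lay far apart. The fold was 58.2 (interval 44.0 to 78.6) and the log2 ratio 5.83 (5.46 to 6.30). HECW2 ranked 3 of the 11321 genes by this ratio. The genes ranked above it were a non-coding gene without a symbol (ENSG00000224698.1) and the readthrough gene BLOC1S5-TXNDC5, both chosen after their values were seen. They had 0 counts in the control library and 513 and 269 in the SMC1A library. HECW2 thus had more counts than any other gene whose log2 ratio reached 4.

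**Figure D2:**
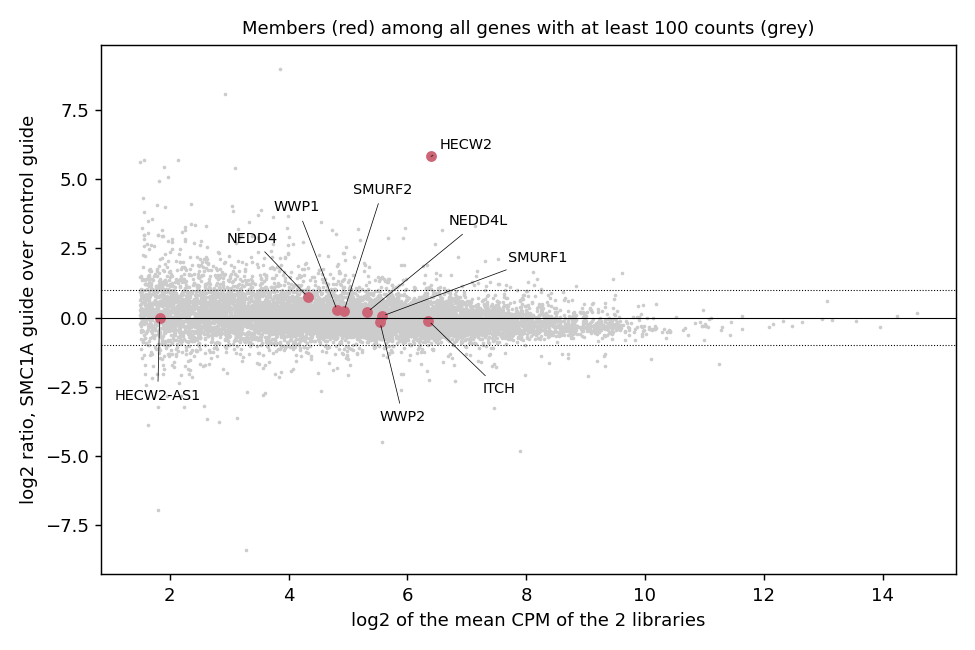
Log2 ratio of the SMC1A guide over the control guide against the log2 of the mean CPM, for all genes with at least 100 counts (grey) and the 9 family genes among them (red); dotted lines mark 2-fold. HECW2 lies at 5.83, and the other 8 lie between -0.16 (WWP2) and 0.75 (NEDD4).

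The genes whose log2 ratio was nearest to that of HECW2, by absolute difference over these 2 libraries, were few-count genes. The nearest was SLFN12L, with 1 and 104 counts, followed by the collagen gene COL3A1 with 2 and 154. The transporter gene SLC22A11 had 1 and 99 counts, MDGA1 had 2 and 130, and the non-coding gene LINC01132 had 6 and 296. Their log2 ratios ran from 5.40 to 5.71, and the control counts of 1 to 6 leave their folds far less precise than that of HECW2. For COL3A1, for example, the log2 interval ran from 4.38 to 9.32.

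HECW2-AS1 (ENSG00000229056.2, chromosome 2, 196260024 to 196264204, plus strand) lies inside the HECW2 span on the opposite strand, and its exons share 0 bases with the annotated HECW2 exons. It had 63 counts (3.59 CPM) in the control library and 62 (3.52 CPM) under SMC1A depletion. The libraries stood level for this transcript, and their intervals overlapped almost fully. The log2 ratio was -0.03 (interval -0.56 to 0.50), and it was 0.10 when libraries were scaled by their totals, so its sign depends on the scaling. As a fold the interval ran from 0.678 to 1.41, and no difference was detectable at this depth. HECW2 counts per HECW2-AS1 count went from 0.794 (interval 0.536 to 1.17) to 47.2 (36.7 to 61.7), a ratio within each library that needs no scaling between them. The library kit keeps the strand of the RNA, but whether the counting made use of it is not stated by the sources used.

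The bases before the annotated starts are shown for 3 of the genes. They set the gene with the largest difference beside its antisense partner and beside a ligase with a similar printed window and little difference. The sequences are the 250 bases before a RefSeq start (GRCh38.p14), on the gene's own strand, and were taken only where no annotated exon lies in the window. They are chr2:196592984-196593233 (minus strand) for HECW2, chr2:196259774-196260023 (plus strand) for HECW2-AS1 and chr7:99144109-99144358 (minus strand) for SMURF1. Capitals mark each CG dinucleotide in HECW2 and SMURF1, and in HECW2-AS1 each GATA word on either strand (AGATAA, its variant ending in G, AGATAG, its variant starting with T, TGATAA, and the variant with both changes, TGATAG).
HECW2: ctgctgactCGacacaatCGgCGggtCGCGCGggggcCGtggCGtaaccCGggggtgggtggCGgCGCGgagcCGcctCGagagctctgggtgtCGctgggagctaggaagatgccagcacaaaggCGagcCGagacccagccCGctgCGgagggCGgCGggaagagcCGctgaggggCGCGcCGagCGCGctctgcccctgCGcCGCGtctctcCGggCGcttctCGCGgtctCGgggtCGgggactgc
HECW2-AS1: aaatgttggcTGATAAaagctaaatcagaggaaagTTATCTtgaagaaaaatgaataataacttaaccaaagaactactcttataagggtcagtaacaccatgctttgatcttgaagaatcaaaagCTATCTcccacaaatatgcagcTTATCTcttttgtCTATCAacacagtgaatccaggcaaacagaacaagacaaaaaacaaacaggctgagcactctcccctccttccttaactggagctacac
SMURF1: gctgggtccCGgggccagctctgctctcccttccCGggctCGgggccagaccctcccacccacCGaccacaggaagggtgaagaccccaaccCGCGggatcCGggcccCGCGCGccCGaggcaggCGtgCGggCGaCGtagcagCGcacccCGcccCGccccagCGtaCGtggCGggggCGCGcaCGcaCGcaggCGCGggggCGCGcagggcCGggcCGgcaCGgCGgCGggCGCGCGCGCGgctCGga
The HECW2 window, which lies inside the annotated gene before the downstream of its 2 RefSeq starts, holds 36 CG dinucleotides and 74.8% G or C. Of 35116 windows of the same length before RefSeq starts, 4.85% hold as many CG dinucleotides, and the median is 11. The window before the upstream HECW2 start, not printed because it holds annotated exon, has 23 CG dinucleotides and 70.8% G or C. As many CG dinucleotides are held by 25.8% of windows. The SMURF1 window, chosen for its likeness to the printed HECW2 window, has 40 CG dinucleotides and 81.2% G or C, whereas the HECW2-AS1 window holds 0 and 37.2%. Windows not printed are also alike, those of SMURF2 (33 CG dinucleotides, 82% G or C) and of the most upstream NEDD4 start (35, 78%). The other NEDD4 windows hold 1 CG dinucleotide each. HECW2-AS1 has 5 GATA words, which are bound by GATA factors in general, and 22.3% of all windows hold at least 1. The share of windows that hold 5 was not computed. The words are mostly A and T, and the G or C content of this window is below the median of 58% over all windows. The HECW2 and SMURF1 windows hold no GATA words. Core words of the CTCF motif on either strand (AGGGGGC and the variants written AGGTGGC, then AGAGGGC and finally AGATGGC), present in 26.4% of windows, were found in none of the 3. These matches describe letters in the windows, and no binding was measured.

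HECW1, the closest relative of HECW2, lies on chromosome 7 (43112599 to 43566001 in the annotation) and had 0 counts in both libraries. At a limit of 3 counts, its level could be up to 0.171 CPM in the control library and 0.170 CPM in the other. The HECW pair thus differed within these cells: one gene was counted 2924 times in the SMC1A library and the other 0 times.

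NEDD4 (ENSG00000069869.17, chromosome 15, 55826922 to 55993746), the founding ligase of the family, acts on growth factor receptors and other membrane proteins. It had 261 counts (14.9 CPM) in the control library and 443 (25.1 CPM) in the SMC1A library. The SMC1A library was higher, with intervals of 13.1 to 16.8 and 22.8 to 27.6 CPM that did not overlap. The fold was 1.69 (interval 1.45 to 1.98) and the log2 ratio 0.75, short of 2-fold under every scaling tried (up to 0.88 by library totals). With a limit of 1.5-fold, 2 genes of the family (HECW2 and NEDD4) were higher and 0 lower, against 12.2% and 9.06% of all genes. Of all genes with at least 100 counts, 8.50% had a higher ratio than NEDD4. Its relative NEDD4L, which is known for the removal of sodium channels from the cell surface, had 656 and 757 counts (37.4 and 42.9 CPM) and a log2 ratio of 0.20 (interval 0.05 to 0.35). NEDD4 counts per NEDD4L count were 0.398 (interval 0.343 to 0.460) in the control library and 0.585 (0.519 to 0.659) in the SMC1A library.

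ITCH, which limits T cell activation and acts on JUNB and other transcription factors, was the ligase with the most counts in the control library. It had 1490 counts (84.9 CPM) there and 1385 (78.5 CPM) with the SMC1A guide. The libraries were close, with a log2 ratio of -0.11 (interval -0.22 to -0.01) that turned to 0.02 by library totals. WWP2 had 862 and 773 counts (49.1 and 43.8 CPM, log2 ratio -0.16, interval -0.31 to -0.02). Its relative WWP1, which acts on the transcription factor KLF5, had 451 and 542 counts (25.7 and 30.7 CPM, log2 ratio 0.26, interval 0.07 to 0.44). Within the libraries there were 0.523 WWP1 counts per WWP2 count under the control guide (interval 0.466 to 0.587) and 0.701 under the other (0.627 to 0.784).

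The SMURF pair adds ubiquitin to SMAD proteins and to receptors of the TGF-beta and BMP pathways. SMURF1 had 821 and 855 counts (46.8 and 48.5 CPM, log2 ratio 0.05, interval -0.09 to 0.19), so that no difference was detectable. SMURF2 had 492 and 584 counts (28.0 and 33.1 CPM, log2 ratio 0.24, interval 0.06 to 0.42). The counting interval left out 1-fold for 7 of the 9 genes with at least 100 counts, as it did for 68.2% of all genes, so a ratio beyond counting error was common in this pair of libraries.

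The levels of different genes were compared per length, as CPM per kb of merged annotated exons. With the control guide the order was ITCH (12.7), SMURF1 (7.46), WWP2 (5.45), WWP1 (4.06), SMURF2 (4.03), NEDD4L (2.14), NEDD4 (1.63) and HECW2 (0.120). By this length WWP1 and SMURF2 did not differ beyond their counting intervals, and the other neighbours in this order did. With the SMC1A guide ITCH (11.8) and SMURF1 (7.72) still led, and HECW2 followed with an interval of 6.75 to 7.26 CPM per kb, which overlapped that of SMURF1 (7.22 to 8.26). WWP2 (4.86), WWP1 (4.85) and SMURF2 (4.76) could then not be ordered, nor could NEDD4 (2.75) and NEDD4L (2.46). HECW2 thus stood last of the 8 detected ligases with the control guide and rose to place 3 with the SMC1A guide.

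HECW2 held 0.320% of the per-length RNA of the 9 ligases in the control library and 15.2% in the SMC1A library. These shares depend on the length used, since HECW2 has 23683 bases of merged exons but a longest transcript of 12180. Per base of the longest annotated transcript the shares were 0.475% and 21.0%, and per base of coding sequence 0.563% and 24.0%. By the latter 2 lengths HECW2, not ITCH (18.9% and 19.9%), was the leading ligase in the SMC1A library. The 8 ligases without HECW2 summed to 286.9 CPM in the control library and 302.7 CPM in the SMC1A library (1.06-fold, log2 ratio 0.08, interval 0.02 to 0.13). With HECW2 the sum went from 289.7 to 468.5 CPM (1.62-fold). These sums are not per length, so genes with long exons weigh more in them. Per kb of merged exons the 9 ligases summed to 37.6 and 46.2 CPM (1.23-fold). Without HECW2 they summed to 37.5 and 39.2 (1.04-fold).

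**Figure D3:**
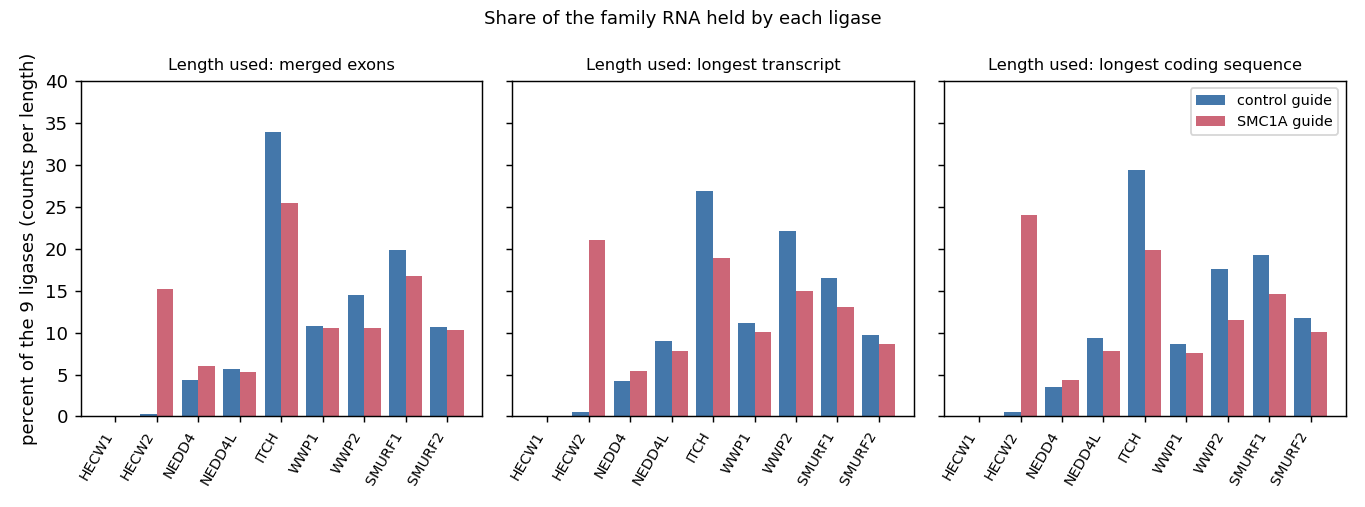
Percent of the summed counts per length of the 9 ligases held by each, in the control (blue) and SMC1A (red) library, with 3 definitions of gene length. HECW2 takes 15.2%, 21.0% or 24.0% in the SMC1A library and under 1% in the control library, whichever length is used.

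Within 1 Mb of the HECW2 span, genes with at least 100 counts had log2 ratios from -0.82 to 0.59, against 5.83 for HECW2. Of these 12 genes, 0 passed 2-fold in either direction, against 7.44% of all genes, so a list of this size is near that background. Their median log2 ratio was -0.10. The nearest downstream gene, STK17B, which encodes a serine/threonine kinase linked to apoptosis, lies 12.6 kb away. It had 500 and 662 counts (28.5 and 37.5 CPM, log2 ratio 0.40, interval 0.23 to 0.57). On the other side, next to the HECW2 start, CCDC150 lies 45.9 kb away and had 408 and 395 counts, with a log2 ratio of -0.05 (interval -0.26 to 0.15). GTF3C3, a subunit of the RNA polymerase III factor TFIIIC, was also at -0.05, with 1769 and 1715 counts. PGAP1, which remodels GPI anchors, was the highest neighbour at 0.59 (112 and 170 counts), and ANKRD44, which encodes an ankyrin repeat subunit of a protein phosphatase complex, the lowest at -0.82 (94 and 53 counts).

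Farther away, the splicing factor gene SF3B1 was at -0.14 and the zinc transporter gene SLC39A10 at -0.32. The mitochondrial chaperone genes HSPD1 and HSPE1 were at -0.65 and -0.55, COQ10B at -0.05 and MOB4 at -0.01. By library totals CCDC150 was at 0.07, GTF3C3 at 0.08, COQ10B at 0.08 and MOB4 at 0.12, so the sign of these 4 depends on the scaling. The readthrough gene HSPE1-MOB4, whose reads cannot be fully told apart from those of its parts, was at -0.30 on 64 and 52 counts. The dynein gene DNAH7, with 11 and 12 counts, was too low to show a difference (interval -1.19 to 1.44). The HECW2 log2 ratio of 5.83 was thus more than 5 above that of each of these neighbours.

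**Figure D4:**
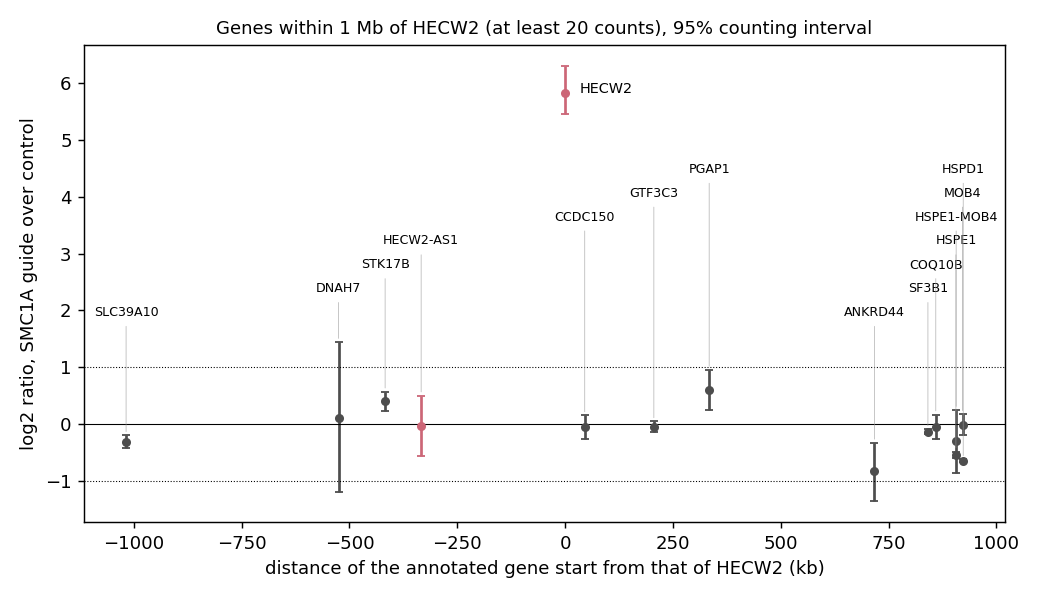
Log2 ratio with exact 95% counting interval for genes within 1 Mb of the HECW2 span (at least 20 counts), by the distance between annotated starts; positive distances lie toward higher coordinates. HECW2 lies at 5.83, and the neighbours lie between -0.82 (ANKRD44) and 0.59 (PGAP1), inside the dotted 2-fold lines.

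Of the 139 gene places counted within 1 Mb of the other 8 ligases (at least 100 counts), 7 passed 2-fold upward and 0 downward. The upward share was 5.04%, near the 5.11% of all genes, and 2.32% of all genes passed downward. The 7 genes were chosen after their values were seen. Close to SMURF2 on chromosome 17 were the surface protein genes MILR1 (31 and 147 counts, log2 ratio 2.20, 73.7 kb away), PECAM1 (242 and 775, 1.67) and ICAM2 (706 and 2063, 1.54). SMURF2 itself was at 0.24. Beside HECW1, which had no counts, STK17A, a paralog of the HECW2 neighbour STK17B, had 453 and 1185 counts (log2 ratio 1.38, interval 1.22 to 1.54) and lies 16.8 kb away. The others were PROCR near ITCH (25 and 382 counts, 3.87), the carbonic anhydrase gene CA1 near WWP1 (2.64) and TECPR1 near SMURF1 (1.13).

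Protein-coding genes that overlap a ligase on the other strand were also near their control level. TRRAP, a scaffold of histone acetyltransferase complexes that overlaps SMURF1, had 4361 and 3848 counts (log2 ratio -0.19). CEP95, which overlaps SMURF2, had 910 and 786 (-0.22), and RMDN1, which overlaps WWP1, had 825 and 824 (-0.01). CEP95 and TRRAP were at -0.09 and -0.06 by library totals, and RMDN1 turned to 0.12. Their exons share from 167 to 735 bases with the ligase on the opposite strand, so part of those reads could have been counted for either gene.

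The other 19 HECT ligases share the catalytic domain but not the C2 and WW arrangement. Of 17 with at least 100 counts, 0 passed 2-fold, against 7.44% of all genes in either direction, so a list of this size is near that background. Their median was 0.05. HERC2 (log2 ratio -0.47), UBE3C (-0.31) and AREL1 (-0.31) were the lowest, and HECTD2 (0.35), HACE1 (0.35) and HECTD4 (0.35) the highest. HERC5 and HERC6, the remaining 2, had 0 counts in the control library, with 2 and 0 in the SMC1A library. The symbol HERC3 has 2 rows, of which the one in the annotation used here was at -0.02 (207 and 205 counts, 0.11 by library totals), and the other had 0 and 40 counts.

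The E1, E2 and ubiquitin genes supply ubiquitin to the ligases. Of 13 with at least 100 counts, 0 passed 2-fold, which is also near the 7.44% of all genes, and the median was -0.12. UBE2L3, an E2 enzyme that works with HECT ligases, had 13228 and 13342 counts and a log2 ratio of 0.00. It was named outside the rule of the 3 highest and 3 lowest of the list. The lowest were UBE2D1 (-0.43), UBE2D4 (-0.42) and the ubiquitin precursor gene RPS27A (-0.38), and the highest UBE2E3 (0.49), UBE2E1 (0.22) and the E1 gene UBA1 (0.20). UBE2L6, an E2 enzyme of the ubiquitin-like protein ISG15, had 5 and 44 counts (log2 ratio 2.90) and was named after its values were seen. It reached 20 counts only through the SMC1A library. With it, 1 of 15 genes with at least 20 counts passed 2-fold, a filter at which no share of all genes was computed, and nothing is read from that count.

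Of 27 adaptors and regulators of the family with at least 100 counts, 2 passed 2-fold upward and 1 downward, against 5.11% and 2.32% of all genes, and the median was 0.06. These counts are close to that background. LAPTM4B, a lysosomal membrane protein gene, had 6802 and 20640 counts (387.7 and 1170 CPM, 3.02-fold, log2 interval 1.55 to 1.63). The arrestin-like adaptor genes ARRDC3 and ARRDC4, whose proteins carry PY motifs, had 314 and 645 counts and 1500 and 2854 counts, with log2 ratios of 1.03 and 0.92. By library totals ARRDC4 was at 1.05, which made 3 genes past 2-fold in place of 2. N4BP3, named as a NEDD4 binding protein, went from 131 to 25 counts (5.27-fold lower, log2 interval -3.08 to -1.77). LAPTM5 (-0.49) and the deubiquitinase gene USP15 (-0.36) were the next lowest. The main PY adaptors NDFIP1 and NDFIP2, chosen after their values were seen, were at 0.05 and -0.07, the latter 0.05 by library totals.

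**Figure D5:**
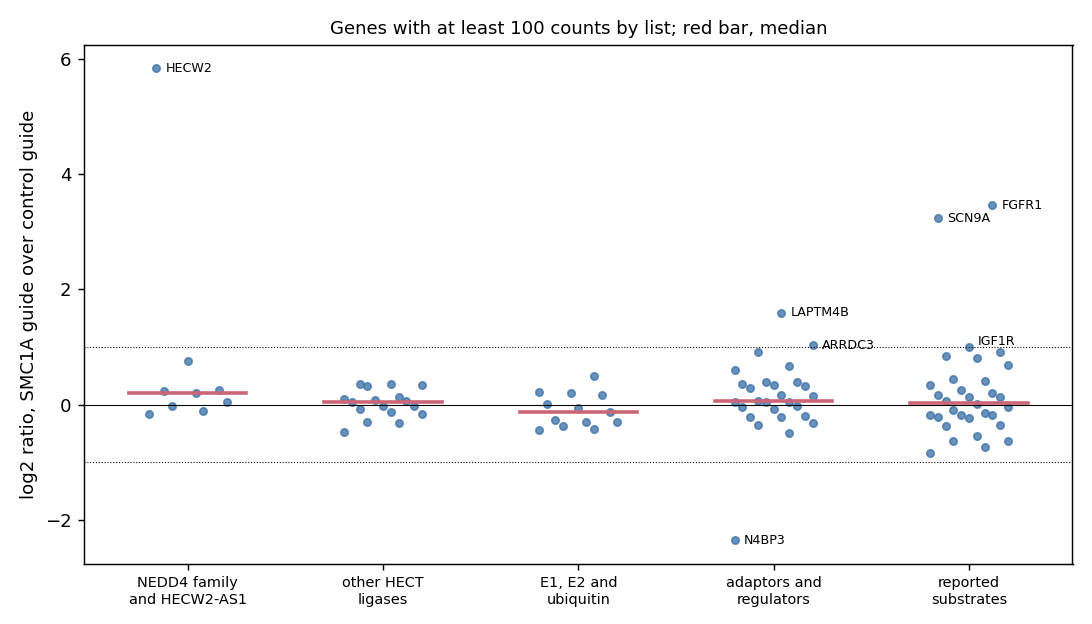
Log2 ratio of each gene with at least 100 counts in the NEDD4 family and in 4 related lists, with the list median as a red bar and 2-fold as dotted lines. HECW2 lies at 5.83, the other HECT ligases between -0.47 and 0.35, and the genes past 2-fold are named.

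Among 45 genes whose proteins have been described as substrates of the family, 32 had at least 100 counts, 3 of these passed 2-fold upward and 0 downward (5.11% and 2.32% of all genes), and the median was 0.04. FGFR1, a receptor that NEDD4 can bind, had 67 and 752 counts (log2 ratio 3.46), and the sodium channel gene SCN9A had 210 and 1987 (3.23). The growth factor receptor gene IGF1R had 87 and 176 counts and lay at the limit (1.00, interval 0.63 to 1.40). The lowest were ERBB3 (-0.84, 88 and 49 counts), DVL1 (-0.73) and JUNB (-0.63). Of the proteins described as partners of HECW2 itself, TP73 had 164 and 312 counts (log2 ratio 0.92) and AMOTL1 2481 and 4486 (0.85). By library totals TP73 was at 1.04, which made 4 substrate genes past 2-fold upward in place of 3. PCNA and LMNB1 were at -0.37 and -0.18, and LMNB1 was at -0.05 by library totals. These 4 genes were picked out after their values were seen. These are RNA levels, and neither protein amounts nor ubiquitin transfer were measured.

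HECW2 is expressed in endothelium and brain, and markers of such cells were checked in the same libraries. Of 12 endothelial markers, 7 had 0 counts in both libraries (CDH5, VWF, TEK, ERG, EMCN, CLDN5 and ROBO4), and the list summed to 76.4 CPM in the control library and 92.4 CPM in the SMC1A library. PECAM1 was at 1.67, EGFL7 at -0.44 and TIE1 at 0.28 (interval -0.44 to 1.02). ESAM had 3 and 29 counts (2.90, interval 1.58 to 5.62) and reached 20 counts only through the SMC1A library. With it, 2 of 4 endothelial markers with at least 20 counts passed 2-fold upward, a tally from which nothing is read. With at least 100 counts, 1 of 2 did, against 5.11% of all genes, and no share of all genes was computed at 20 counts. Of 12 neuronal markers, 6 had 0 counts in both (MAP2, SNAP25, NEFL, STMN2, ELAVL4 and DCX), with sums of 19.4 and 24.2 CPM. The 2 neuronal markers with at least 100 counts differed in opposite directions, with SYP at 81 and 24 counts (-1.72) and TUBB3 at 252 and 393 (0.63). Of 10 fibroblast markers, 4 had 0 counts in both (LUM, PDGFRA, THY1 and POSTN), with sums of 8.44 and 25.1 CPM. Of the 3 with at least 100 counts, 2 passed 2-fold upward, against 5.11% of all genes. These were COL3A1 (5.68) and COL1A1 (64 and 233 counts, 1.84), while COL1A2 was at -0.73 on 70 and 42 counts. COL3A1, with 2 and 154 counts, reached 100 counts only through the SMC1A library, and nothing is read from so few markers. The part of these markers in the HECW2 difference was not tested. In bulk RNA, more cells with HECW2 RNA and more HECW2 RNA per cell cannot be told apart.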

How the data were processed

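RNA of 2 K562 libraries, 1 per guide, was analysed. The authors deposited estimated counts per gene, which are whole numbers in their table and are not scaled between libraries. The submitters' processing notes name STAR 2.7.10a, Salmon 1.10.1 and DESeq2 1.42.1, and the build GRCh38, with no order or role. For the annotation and the strand setting, the values were not given in the sources used here. Salmon divides reads that match several transcripts, so counts of near-identical and readthrough genes depend on that division. Rows of fluorescent reporters took 0.0628% and 0.0999% of the counts and stayed in the totals.

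Library sizes were scaled with TMM (edgeR 4.0.16, R 4.3.3), and log2 ratios used edgeR's formula with a prior count of 1. Intervals are exact 95% intervals (Clopper-Pearson for ratios, Poisson for levels) and cover counting error only, since no molecular identifiers are described and reads can repeat a molecule. Folds, neighbours (within 1 Mb) and lists were described at 2-fold among genes with at least 100 counts. Positions and lengths came from GENCODE 29 (GRCh38), which held 97.9% of these genes, and start sequences from RefSeq (GRCh38.p14), which matched 9 of the 10 genes. Python 3.11.15 and scipy 1.17.1 were used, and the calculation was checked on simulated counts. No tests were run, since there is 1 library per guide.

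The family and the gene lists were chosen with earlier results of these data known. The genes named are the target, the 10 members, overlapping genes and protein-coding HECW2 neighbours with at least 20 counts, the 3 highest and 3 lowest of each list with at least 100 counts, and the 5 genes nearest to HECW2 in ratio. The cell type markers came from marker lists. UBE2L3, HERC3, HERC5 and HERC6 were also named outside this rule, and the other genes are said to be chosen after their values were seen. Alternatives were scaling by library totals, by the upper quartile and by size factors of DESeq2 1.42.0, prior counts of 0.25 and 5, and other filters, folds, windows and lengths.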

Additional observations from a re-analysis of the deposited data

How the results depend on the processing

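The HECW2 log2 ratio stayed between 5.73 and 5.96 under 5 alternatives of scaling and prior count. The family's count of 1 gene higher and 0 lower held under 9 of 10 alternatives, and with a limit of 1.5-fold 2 genes were higher (HECW2 and NEDD4). Scaling by library totals moved the median of all genes by 0.13 and the share of higher calls among those past 2-fold from 68.8% to 79.7%. ITCH (0.02) and HECW2-AS1 (0.10) turned sign under it. A window of 2 Mb added 1 neighbour at least 2-fold lower, and a minimum of 20 counts added 1 E2 gene (UBE2L6) at least 2-fold higher. UBE2L6 reached that minimum only through the SMC1A library. The HECW2 share of family RNA moved with gene length: 0.475% and 21.0% by longest transcript, 0.563% and 24.0% by coding sequence, a length added after seeing the data. Protein lengths were not used here, so that alternative was not run. No paired analysis was possible because each guide has 1 library, and for that reason no library could be left out. At 18349209 and 16864207 counts, the 50 control counts of HECW2 set most of the width of its interval.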
